A study of Mus musculus with 6 samples.

Results

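The pregnancy-specific glycoprotein (Psg) genes described here are Psg29, Psg17, Psg18, Psg19, Psg21, Psg23, Psg26, Psg27 and Psg28, 9 of the 22180 genes measured by array rows that carried 1 gene symbol. Each of the 9 was read by 1 row, so choosing the row with the highest mean over the arrays removed none. The family was chosen by a measured value, the difference of Psg29 between genotypes, which stood 7th by size of increase among all genes. That difference is therefore given as a description, and no weight is put on its test. RNA was measured on Affymetrix arrays from pooled C57BL/6 mouse hearts dissected on embryonic day 9.5, with 3 pools per genotype; how many hearts made up a pool is not stated. Control embryos were Hdac3-flox/flox: both copies of Hdac3 were floxed and no Cre was present. The other embryos, Hdac3-Isl1KO, were Hdac3-flox/flox with Isl1-Cre, which deletes the histone deacetylase gene Hdac3 only in cells that have expressed Isl1, such as those of the second heart field. Both genotypes therefore share the floxed allele, and any effect of the Isl1-Cre allele cannot be told apart from that of Hdac3 loss.

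Psg proteins are secreted members of the carcinoembryonic antigen (CEA) family, built from immunoglobulin-like domains. In rodents they are made by the trophoblast of the placenta, in giant cells and spongiotrophoblast, and are released toward the mother, where they are known to act on immune cells, platelets and vessels. The genes arose by repeated duplication, so their transcripts are very alike.

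The 6 arrays had medians from 5.64 to 5.71 on the log2 scale, and correlations between arrays from 0.980 to 0.989. Hdac3 itself read 9.68 ± 0.05 in Hdac3-flox/flox and 9.21 ± 0.10 in Hdac3-Isl1KO (SD, n = 3 each), without overlap, and its limma adjusted p was 0.0636. The 12 heart muscle genes checked were all above the median row, with mean log2 values from 11.23 to 11.25 in the control pools and from 11.14 to 11.17 in the Hdac3-Isl1KO pools. Of these 12 genes 10 had negative differences, with a median of -0.10, and 0 passed over all genes (3 at an unadjusted limma p under 0.05, beside 14.5% of all genes). Groups did not overlap for 10 of the 12, of which 9 were lower in Hdac3-Isl1KO, beside 12.4% of all genes. The gene lists used here were written with some results of these data known, so such counts are descriptions. In whole-heart pools, a change in the number of cells of a type and a change in RNA per cell cannot be told apart.

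Promoter sequences show how alike the family members are and how Psg29 differs from the rest. RefSeq promoters of assembly GRCm38.p6 were found for 8 of the 9 genes, all except Psg19. The 250 bases before the start site are printed for Psg29, the member with the largest difference, and for Psg28, which has the next largest positive difference. Capitals mark the letters CTTATC, which read GATAAG on the other strand, the core that GATA factors recognise.
Psg29 (chr7:17203227-17203476, plus strand): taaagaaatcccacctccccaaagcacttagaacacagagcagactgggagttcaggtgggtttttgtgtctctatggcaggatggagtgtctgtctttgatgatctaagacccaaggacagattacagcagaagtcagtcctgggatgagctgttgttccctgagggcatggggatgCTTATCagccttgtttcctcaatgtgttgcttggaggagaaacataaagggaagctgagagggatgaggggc
Psg28 (chr7:18432056-18432305, minus strand): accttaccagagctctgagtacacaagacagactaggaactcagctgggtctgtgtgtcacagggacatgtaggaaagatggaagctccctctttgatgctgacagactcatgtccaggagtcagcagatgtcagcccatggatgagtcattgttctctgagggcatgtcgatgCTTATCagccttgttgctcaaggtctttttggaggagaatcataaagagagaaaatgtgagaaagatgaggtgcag
Over the 300 bases in the table, from 250 before to 50 after the start, Psg29 shared 69.2% to 72.5% of aligned positions with each of the other 7 promoters. Those 7 shared 81.2% to 98.7% among themselves over 21 pairs, with a median of 86.0%. Psg21 and Psg23 were the closest pair, and Psg18 and Psg28 followed at 97% identity. By gene order on chromosome 7, Psg29 lies on the plus strand among Ceacam genes, between Ceacam3 and the pseudogene Psg-ps1, whereas the other 7 promoters read on the minus strand in a separate run of Psg genes.

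The same letters stood in every one of the 8 promoters, starting between 69 and 108 bases upstream. The windows below hold 36 bases each and are shown so that the shared surroundings of CTTATC can be compared, with these letters in capitals.
Psg29 (chr7:17203390-17203425, plus strand): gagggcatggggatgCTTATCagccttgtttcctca
Psg18 (chr7:18355063-18355098, minus strand): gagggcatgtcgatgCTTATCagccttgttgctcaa
Psg28 (chr7:18432111-18432146, minus strand): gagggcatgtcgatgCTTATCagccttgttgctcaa
Psg26 (chr7:18484237-18484272, minus strand): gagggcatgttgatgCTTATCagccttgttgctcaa
Psg27 (chr7:18567369-18567404, minus strand): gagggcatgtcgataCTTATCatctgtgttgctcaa
Psg23 (chr7:18616553-18616588, minus strand): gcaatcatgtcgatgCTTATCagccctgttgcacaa
Psg21 (chr7:18656774-18656809, minus strand): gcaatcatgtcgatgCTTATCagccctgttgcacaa
Psg17 (chr7:18821654-18821689, minus strand): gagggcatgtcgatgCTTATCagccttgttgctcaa
Psg18, Psg28 and Psg17 were identical over this window, as were Psg21 and Psg23. The letters GATAAG, on either strand, were in 8 of 8 Psg promoters and in 7.44% of the 32851 promoters of that length. CATAAA on either strand was also in all 8, against 11.9% of promoters, while TATAAA was in 0 of 8, against 13.6%. GGGCGG was found in 0 of 8 (35.7% of all promoters), and CACCC only in Psg17 (57.5%). The promoters are copies of one another, so these matches are not separate observations. The motifs were also chosen after the sequences were seen, so the shares are given as description and no test is made of them. Psg29 held the same 2 recurring motifs as the other matched members. Binding was not measured, and the part of these letters in the Psg29 difference was not tested.

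Psg29 was the member with the clear gap between genotypes. It read 5.72, 6.01 and 5.45 in the Hdac3-flox/flox pools and 7.05, 6.87 and 6.91 in the Hdac3-Isl1KO pools, on the RMA log2 scale. Every Hdac3-Isl1KO pool was above every control pool, with a gap of 0.86 between the nearest values. The means were 5.73 ± 0.28 and 6.94 ± 0.10 (SD, n = 3 each). The difference was 1.22 on the log2 scale (95% interval 0.88 to 1.55), or 2.32-fold. With each array left out in turn the difference lay between 1.08 and 1.36. In the control pools Psg29 was close to the median of all rows, 5.66, so its increase did not start from the lowest range of the array.

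In the fit over all genes, 1 of the 9 Psg genes passed a limma adjusted p of 0.05, Psg29, against a background of 0.428% of all genes called. Nothing is read from that count, since the call on Psg29 led to the choice of the family. Psg29 kept the call without Hdac3-flox/flox replicate 2 (limma adjusted p = 0.0448). It missed the threshold without Hdac3-flox/flox replicate 1 or 3 (0.139 and 0.0735) and without Hdac3-Isl1KO replicate 1, 2 or 3 (0.117, 0.138 and 0.151). Over all settings its adjusted p ran from 0.000579 to 0.151. Groups did not overlap for 3 of the 9 genes, beside 21.8% of all genes. Of the 3, 1 was higher in Hdac3-Isl1KO, beside 9.41% of all genes, and 2 were lower, beside 12.4%. Both lower genes were dim, and 213 of the 4494 genes below the 25th percentile row were lower without overlap.

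**Figure D1:**
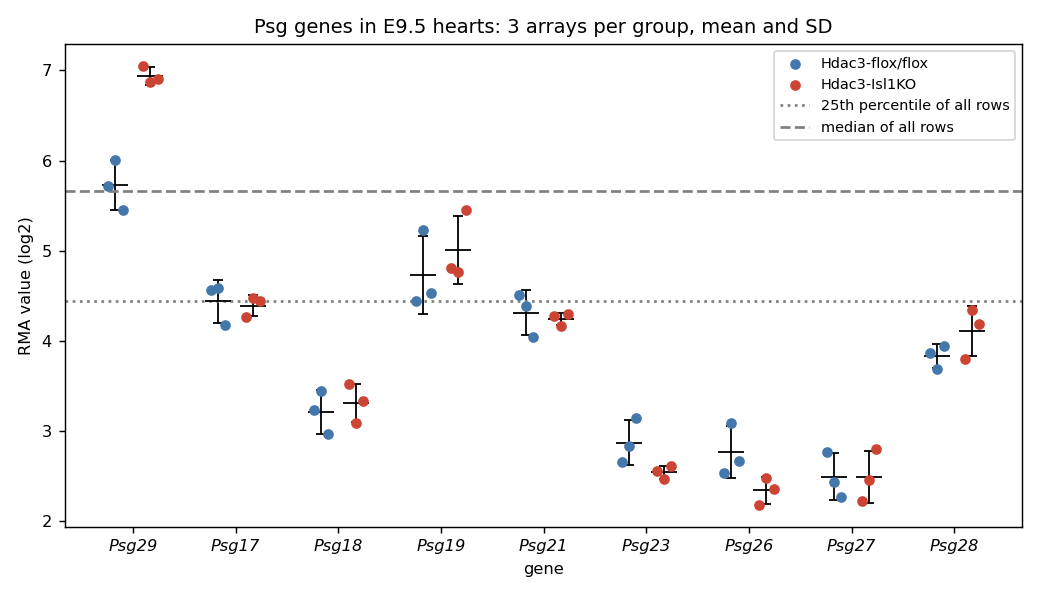
RMA log2 values of the 9 Psg genes on each array, with 3 Hdac3-flox/flox pools (blue) and 3 Hdac3-Isl1KO pools (red) per gene; black bars give the mean and SD, and grey lines the 25th percentile (4.45) and the median (5.66) of all array rows. Psg29 is the member whose pools lie apart by genotype with a wide gap, while 7 genes have means below the dotted line.

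None of the other 8 members passed the test. Of these, 3 had positive and 5 had zero or negative differences, with a median of -0.025 against 9.4e-05 over all genes. In the limma fit 0 passed over all genes. An unadjusted limma p under 0.05 was found for 2, beside 14.5% of all genes and 400 of the 4494 genes below the 25th percentile row. The rows of these 8 members were dim: 7 of the 8 had means below the 25th percentile of rows. There RMA compresses differences, and signal cannot be separated from background without detection calls. A small change in these genes may not be detectable here. The median within-group SD of the 9 genes was 0.22, compared with 0.12 for all genes and 0.19 for genes below the 25th percentile row.

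Psg28 and Psg19 had the next largest positive differences. Psg28 read 3.86, 3.69 and 3.94 in the control pools and 3.80, 4.34 and 4.19 in the Hdac3-Isl1KO pools, so 1 Hdac3-Isl1KO pool lay within the control range. Its difference was 0.28 (95% interval -0.07 to 0.63, limma adjusted p = 0.441). Psg19, whose protein is reported to bind the tetraspanin CD9, read 4.44, 5.23 and 4.53 against 4.81, 4.76 and 5.45. The genotypes overlapped, with 1 high pool in each, and the difference was 0.27 (95% interval -0.34 to 0.89, limma adjusted p = 0.682). Psg19 was the only one of these 8 above the 25th percentile row.

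Psg18, a member reported to raise interleukin-10 in macrophages, read 3.23, 3.44 and 2.97 in controls and 3.52, 3.09 and 3.33 in Hdac3-Isl1KO. Its difference of 0.10 (95% interval -0.26 to 0.46) was within the spread of either group. Psg17, the member first shown to bind CD9, read 4.56, 4.59 and 4.17 against 4.26, 4.47 and 4.44. The pools overlapped, and the difference was -0.05 (95% interval -0.36 to 0.26). Psg21, a giant cell and spongiotrophoblast transcript, read 4.51, 4.39 and 4.04 against 4.27, 4.16 and 4.30. It differed by -0.07 (95% interval -0.38 to 0.23), again with overlapping pools. Limma adjusted p-values of these 3 genes ran from 0.805 to 0.899.

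Psg23 and Psg26 lay lower in Hdac3-Isl1KO without overlap, but by gaps of only 0.04 and 0.05. Psg23, whose protein is reported to induce TGF-beta 1 and VEGF-A and to bind the platelet integrin alphaIIb-beta3, read 2.65, 2.83 and 3.14 in controls and 2.55, 2.47 and 2.61 in Hdac3-Isl1KO. The difference was -0.33 (95% interval -0.63 to -0.03, limma adjusted p = 0.308). Psg26 read 2.53, 3.09 and 2.67 against 2.18, 2.48 and 2.36, a difference of -0.43 (95% interval -0.80 to -0.06, limma adjusted p = 0.285). Both rows are near the bottom of the array, with 4.25% and 3.13% of rows below them. Groups did not overlap in that direction for 12.4% of all genes, and for 213 of the 4494 genes below the 25th percentile row. Neither Psg23 nor Psg26 passed over all genes. Psg27 had a mean of 2.49 in both genotypes, with values of 2.77, 2.43 and 2.27 against 2.22, 2.46 and 2.80, and 2.69% of rows lay below it.

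**Figure D2:**
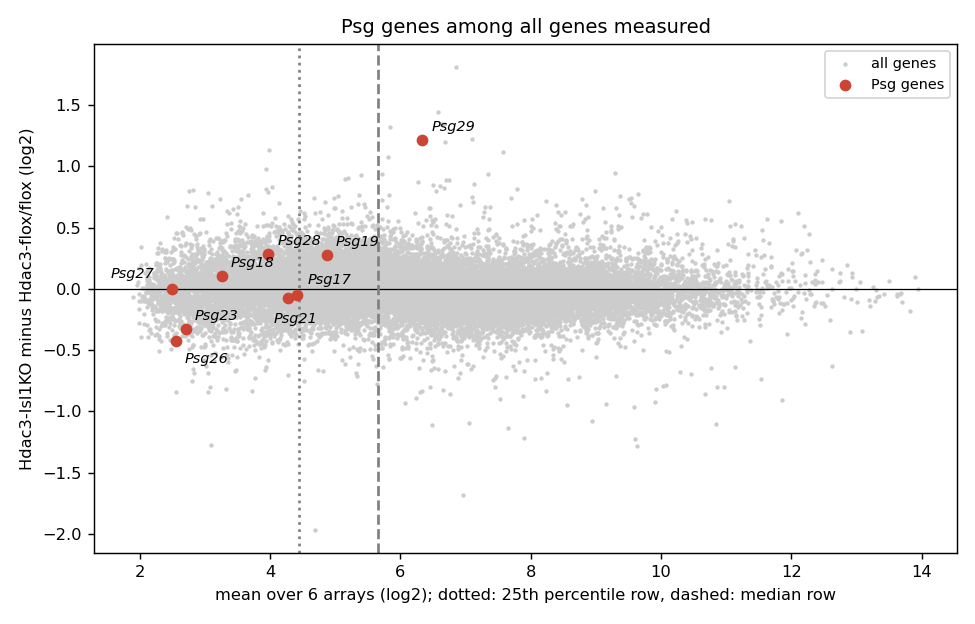
Difference between genotypes (Hdac3-Isl1KO minus Hdac3-flox/flox, log2) against the mean over the 6 arrays (log2) for 22180 genes in grey, with the 9 Psg genes in red; the dotted and dashed lines are the 25th percentile and the median row. Psg29 lies at 1.22 to the right of the median row, and the other 8 lie between -0.43 and 0.28 within the grey cloud.

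No array was high in all of the other members. Over the 8 genes other than Psg29, the median deviation from each gene's own mean was highest on Hdac3-flox/flox replicate 2, at 0.15, and lowest on Hdac3-flox/flox replicate 3, at -0.23. Hdac3-Isl1KO replicates 1, 2 and 3 had medians of -0.16, -0.09 and 0.05. Both extremes were thus control pools, and the Hdac3-Isl1KO pools lay between them. Hdac3-flox/flox replicates 2 and 3 were also the highest and the lowest control pools for Psg29, at 6.01 and 5.45.

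A further 5 Psg genes had rows of their own, and Psg22 had the largest difference of these. Psg22 is known as a giant cell transcript of early pregnancy. It read 3.63, 3.49 and 4.16 in controls and 4.39, 4.47 and 4.04 in Hdac3-Isl1KO, so 1 pool of each genotype crossed. The difference was 0.54 (95% interval 0.07 to 1.0, limma adjusted p = 0.285), and its mean was below the 25th percentile row. Psg16, Psg20, Psg25 and Psg-ps1 differed by 0.01, -0.12, 0.01 and 0.07, with limma adjusted p-values from 0.702 to 0.995. Over all 14 Psg genes measured, 8 had positive differences, with a median of 0.008, and 1 passed over all genes.

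The Ceacam genes, which encode the remaining members of the CEA family and lie around the Psg genes on chromosome 7, gave no call. Of 15 measured, 9 had positive and 6 negative differences, from -0.27 to 0.36 with a median of 0.11. In the limma fit 0 passed, beside 0.428% of all genes. An unadjusted limma p under 0.05 was found for 0, beside 14.5% of all genes. The smallest p-values belonged to Ceacam16 (-0.27), Ceacam9 (0.25), Ceacam15 (0.36) and Ceacam2 (0.36), with limma adjusted p-values from 0.354 to 0.406. The protein-coding neighbours nearest to Psg29 on either side, Ceacam3 and Ceacam5, differed by -0.10 and -0.25 (limma adjusted p = 0.892 and 0.620). Next outward were Psg16 and Ceacam14, which differed by 0.01 and 0.11.

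**Figure D3:**
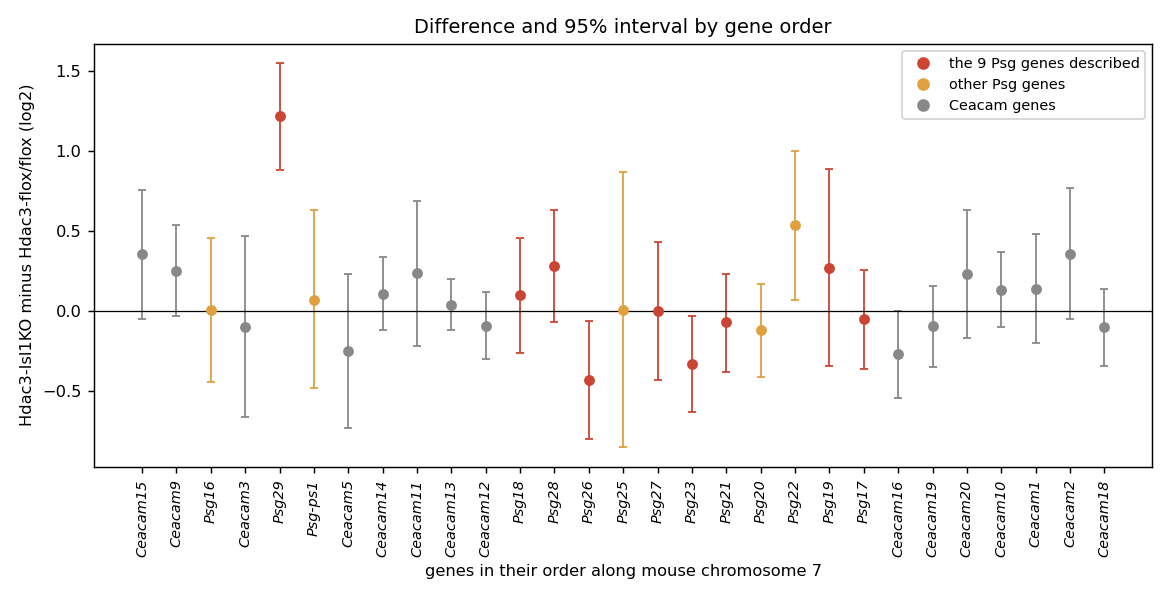
Difference between genotypes (Hdac3-Isl1KO minus Hdac3-flox/flox, log2) with its 95% interval from limma for Psg and Ceacam genes, placed in their order along mouse chromosome 7 by the RefSeq gene table. Psg29, at 1.22, stands among Ceacam genes with differences of at most 0.36, and the run of Psg genes further along ranges from -0.43 to 0.54.

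Some markers of the cells that normally make Psg proteins rose in the same pools. The spongiotrophoblast and giant cell list named 28 genes, of which 23 were measured, and it was written with some of their values known. In Hdac3-Isl1KO 4 of the 23 rose and 0 fell (limma, over all genes), against a background of 0.230% and 0.198% of all genes. Differences were positive for 17 and negative for 6, with a median of 0.16. An unadjusted limma p under 0.05 was found for 6 of the 23, beside 14.5% of all genes. Groups did not overlap for 7, all higher in Hdac3-Isl1KO, beside 21.8% of all genes. The sum of the linear values of the 23 genes ran from 979 to 1010 in the control pools and from 1371 to 1436 in Hdac3-Isl1KO. Without the prolactin family those sums were 764 to 794 and 840 to 918. Of these 15 genes 10 had positive and 5 negative differences, with a median of 0.096, and only Plac8 passed (limma, over all genes). Nrk, Flt1 and Pcdh12 were among the brightest of the 15 in both genotypes and weigh heavily in a linear sum. The sums therefore cannot be read as RNA of these trophoblast cells alone.

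The 4 genes were the placental prolactin genes Prl4a1 (1.81), Prl3d3 (1.44) and Prl7a1 (1.32), and Plac8 (0.87), on the log2 scale. Leaving out 1 array left between 1 and 3 of these calls: 1, on Prl4a1, without Hdac3-flox/flox replicate 3 or Hdac3-Isl1KO replicate 1, 2 without Hdac3-flox/flox replicate 1 or Hdac3-Isl1KO replicate 2 or 3, and 3 without Hdac3-flox/flox replicate 2. Prl3d3, a placental lactogen gene of giant cells, read 5.71, 6.04 and 5.84 in controls and 7.56, 7.20 and 7.16 in Hdac3-Isl1KO, without overlap. Defining markers of the spongiotrophoblast did not pass the test. Tpbpa differed by 0.10 (95% interval -0.43 to 0.62), Tpbpb by -0.23 (95% interval -0.55 to 0.08) and the transcription factor gene Ascl2 by -0.04 (95% interval -0.27 to 0.18), and Tpbpa and Tpbpb were below the 25th percentile row. Of the 23 genes 11 were below that row. The part of trophoblast RNA in the Psg29 difference was not tested.

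**Figure D4:**
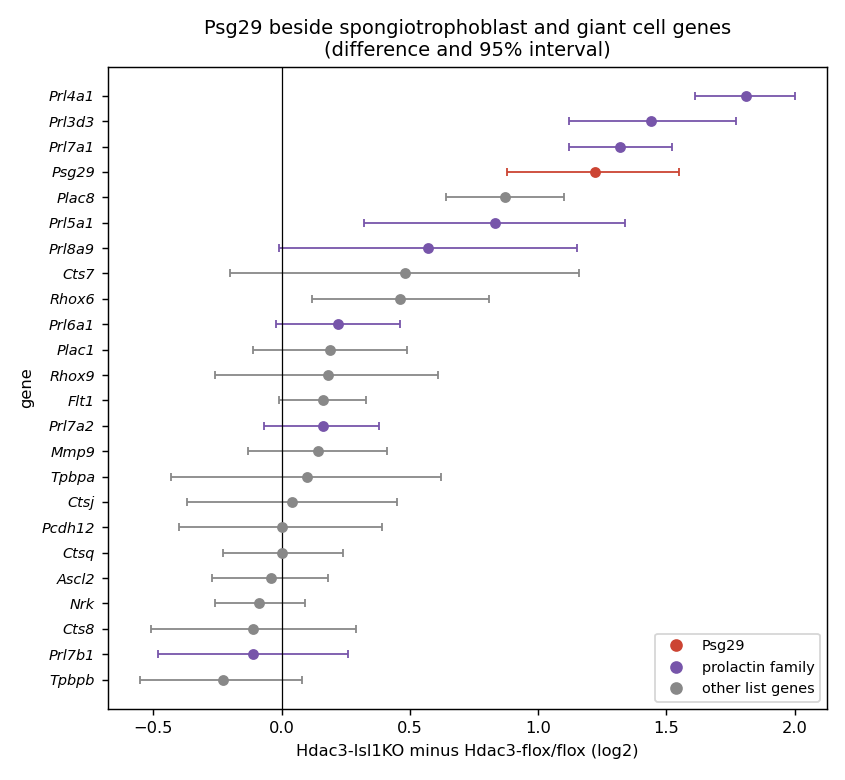
Difference between genotypes (Hdac3-Isl1KO minus Hdac3-flox/flox, log2) with its 95% interval for Psg29 (red), measured prolactin family genes (purple) and other genes of the spongiotrophoblast and giant cell list (grey). Psg29 at 1.22 lies below Prl4a1, Prl3d3 and Prl7a1 and above Plac8, while most other genes of the list have intervals that include 0.

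Lists named for other tissues outside the heart were counted beside the same shares of all genes. These lists, too, were written with some results of these data known, so their counts are descriptions and no test. These shares were 0.428% called, 0.230% up and 0.198% down, 14.5% at an unadjusted limma p under 0.05 and 21.8% without overlap. Some listed genes were bright in both genotypes, among them Des (10.38 in controls and 10.40 in Hdac3-Isl1KO), Hand2 (8.83 and 8.88) and Slc16a1 (10.24 and 10.13). The lists therefore cannot be read as those tissues alone. Of 15 labyrinth and chorion trophoblast genes 0 passed over all genes (limma; 0 at an unadjusted p under 0.05), with a median of 0.028. The smallest p-values there belonged to Syna (0.34), Dlx3 (0.22), Tfap2c (0.26) and Slc16a1 (-0.12). Of 12 decidual genes measured 1 rose, Cyp11a1 (1.35), a steroid synthesis enzyme that giant cells also make, and 2 fell, Prl8a2 (-0.84) and Dcn (-0.80). These 3 were also the decidual genes at an unadjusted limma p under 0.05 and those without overlap. Of 15 yolk sac endoderm genes 13 had positive differences, with a median of 0.22, and Fgb (0.93) rose. Afp (0.84, limma adjusted p = 0.0515), Alb (0.71) and Apoa2 (0.39) did not pass in the fit over all genes. Afp passed with quantile normalization, median centring, either row filter, the trended prior or array weights. Alb passed with the trended prior or array weights, and Apoa2 with the median row filter. None of them passed with 1 array left out or with the replicate block. In that list 6 of 15 had an unadjusted limma p under 0.05, and 8 had groups without overlap, all higher in Hdac3-Isl1KO. The calls on Prl8a2, Dcn and Fgb were lost with any 1 array left out, and that on Cyp11a1 without Hdac3-flox/flox replicate 1 or 3 or Hdac3-Isl1KO replicate 1. The summed linear values of the yolk sac list ran from 584 to 656 in controls and from 790 to 810 in Hdac3-Isl1KO. Their part in the Psg29 difference was not tested either.

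The 5 genes whose values over the 6 arrays were most like those of Psg29, by Pearson correlation, were Myl7, Txndc17, Immp1l, Plac8 and Plekha2, with r from 0.995 to 0.998. Myl7 encodes the atrial myosin light chain of the heart tube, Txndc17 a thioredoxin-like protein, Immp1l a mitochondrial inner membrane peptidase and Plekha2 a phosphoinositide-binding protein. They differed between genotypes by 0.16, 0.63, 0.80, 0.87 and 0.16 in that order, so a like pattern went with differences of unlike size. Over the same arrays 547 genes, or 2.47%, had r above 0.9 with Psg29. The 6 points share the gap between the genotypes. Deviations from the group means correlated with those of Psg29 at r from 0.94 to 0.98 for these 5 genes, which were chosen for a high r on the same arrays. For the other members, r with Psg29 over the 6 arrays ran from -0.81 for Psg23 to 0.50 for Psg19. Their deviations from the group means correlated with those of Psg29 at r from -0.69 for Psg28 to 0.90 for Psg18.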

How the data were processed

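Pooled embryonic hearts were compared, 3 Hdac3-Isl1KO against 3 Hdac3-flox/flox arrays; nothing in the labels says that pools came from separate litters, so a p-value here reflects only how these samples varied, and that spread may be technical. The authors deposited log2 values made with oligo and RMA, per the submitters' processing notes; RMA subtracts background, equalises the distributions of arrays and combines the probes of a row. Their versions and the genome build are not given in the sources used, and detection calls were not used. The number of arrays limits the precision.

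GEO's platform annotation gave 1 symbol for 23521 of 41345 rows, several for 1814 and none for 16010. Rows with 1 symbol gave 22180 genes, with the row of highest mean kept per gene and no filter on dim rows; 0 rows with several symbols named a Psg gene. All 9 Psg genes matched a RefSeq gene of GRCm38.p6 by gene number. That table gave names and gene order only, since the build behind the array annotation is not known; promoter coordinates are those of the RefSeq promoter table. Near-identical Psg genes may share probe signal, so their values are uncertain.

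The test was limma's moderated statistic (version 3.58.1, R 4.3.3, two-sided, Benjamini-Hochberg over all genes, threshold 0.05), and the steps were tested on simulated data. Intervals are 95% intervals from that fit, before adjustment. Promoters were aligned with Biopython 1.88 (global, free end gaps; for Psg18 the first of 2 entries), and identity is over aligned columns. Motifs were chosen after the sequences were seen. Plots used matplotlib 3.10.9.

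The genes and lists were chosen with earlier results of these data known. Named from each list were all genes past the threshold and up to 4 with the smallest p, with Hdac3 and Tgfb1 in any case; Cd9, Tpbpa, Tpbpb, Ascl2 and genes beside Psg29 were added after values were seen. Settings varied were blocking on replicate number, dropping single arrays, quantile normalization, median centring, filters at the median and 25th percentile row, averaging rows, a trended prior and array weights.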

Additional observations from a re-analysis of the deposited data

How the results depend on the processing

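The count of genes passing the limma threshold, 95, depended on the settings. It was 149 with quantile normalization, 235 and 617 with genes above the 25th percentile or the median row only, 866 with a prior trended on the mean level and 243 with array weights. It ran from 2 to 25 with 1 array left out, lowest without Hdac3-flox/flox replicate 3 or Hdac3-Isl1KO replicate 1. With the replicate number as a block it was 0 by limma (2744 genes at an unadjusted p under 0.05), the adjusted p of Psg29 was 0.141, and the calls named in the trophoblast, decidual and yolk sac lists were lost. Deviations of same-numbered pools correlated at -0.0133, -0.086 and 0.04. Hdac3-flox/flox replicates 1, 2 and 3 each correlated best with a Hdac3-Isl1KO pool of another number, at 0.0136, 0.1224 and 0.0905. Of the Hdac3-Isl1KO pools, only replicate 3 correlated best with its own number. With 3 pools per group, these values cannot show whether same-numbered pools shared a litter, day or batch.

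Psg29, whose difference led to the choice of the family, kept its direction under all 14 alternatives (1.08 to 1.36) and passed the threshold in 8. These alternatives reuse the same arrays, so they are not separate support for its difference. Psg19 and Psg28 stayed above 0 and Psg23 and Psg26 below 0 wherever they were measured, while none of the 8 other Psg genes passed under any alternative. Signs turned for Psg17 (-0.19 to 0.02), Psg18 (-0.02 to 0.22), Psg21 (-0.21 to 0.03) and Psg27 (-0.15 to 0.14). The filter at the median row left Psg29 alone of the 9, and that at the 25th percentile row left Psg29 and Psg19. Dim signal limits 7 of the 9 members, all but Psg29 and Psg19.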

Other observations

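Genes reported as binding partners of Psg proteins, or as responding to them, were measured in the same pools. Of 17 genes 7 had positive and 10 negative differences, with a median of -0.024, and 0 passed over all genes with limma (6 at an unadjusted p under 0.05, beside 14.5% of all genes). Groups did not overlap for 10 of the 17, 4 higher and 6 lower in Hdac3-Isl1KO, beside 21.8% of all genes. This list was also written with some results of these data known, so its counts are descriptions. Lgals1, for galectin-1, read 9.72 ± 0.09 in Hdac3-flox/flox and 10.10 ± 0.04 in Hdac3-Isl1KO (SD, n = 3 each; limma adjusted p = 0.0972). Itga2b, the platelet integrin chain, differed by -0.33 (95% interval -0.50 to -0.16, limma adjusted p = 0.137). Vegfa differed by -0.25 and the syndecan gene Sdc3 by 0.18 (limma adjusted p = 0.173 and 0.289). Cd9, the tetraspanin bound by Psg17, differed by 0.11 (95% interval -0.04 to 0.26), and Tgfb1 by 0.16 (95% interval -0.01 to 0.33).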
